A study of Drosophila melanogaster with 14 samples.

Results

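The enzymes of glycolysis and the cytosolic glycerol phosphate dehydrogenase were followed in adult Drosophila melanogaster carrying sesB1, a point mutation in the X-linked gene for the adenine nucleotide translocase of mitochondria. All probesets with the symbol Hex-A, Hex-C, Pgi, Pfk, Ald1, Tpi, Pgk, Eno, Pglym78 or Gpdh1 were taken, whatever their values, which gave 14 probesets of 10 genes among 18769 probesets tested. The genes themselves were listed with earlier results of these data known. Ald1 had 2 probesets, Gpdh1 had 4, and each of the other genes had 1. The mutant flies were the offspring of Canton S females homozygous for sesB1 and Oregon R males carrying sesB1. The control flies came from the same cross of wild-type Canton S and Oregon R, so that both genotypes shared a mixed background of these strains and the males of the mutant carried a single, mutant copy of sesB. RNA was taken from batches of whole flies, virgin females and males, aged 2 days in the sample labels and 1 day in the text of the series. Each sex had 3 wild-type and 4 sesB1 arrays, named biological replicates in the labels, whereas the methods describe isolations in triplicate. Of the members, only Hex-A lies on the X chromosome with sesB by the RefSeq gene table.

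Glycolysis splits a sugar into pyruvate and yields ATP and NADH without oxygen. The translocase brings ADP into the mitochondrion in exchange for ATP, so glycolysis is the route to ATP that does not depend on it. Gpdh1 draws on the same pathway, since it turns dihydroxyacetone phosphate from the aldolase reaction into glycerol phosphate, regenerating NAD, and insect flight muscle uses this step with a mitochondrial oxidase as a shuttle of electrons into the respiratory chain.

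The deposited values are log2 signals centred on the median of each probeset over the 14 arrays. A value of 0 is therefore the middle array for that probeset, differences between arrays can be read, and levels of different genes cannot be compared. Whole flies were used, and a lower signal from fewer cells of a type cannot be told apart from less RNA per cell. Some arrays held transcripts of the other sex. Over 10 genes of the accessory gland, the median was -4.06 on sesB1 female array 2 and -2.14 on array 4, against -5.70 to -5.60 on the other female arrays. Over 3 yolk protein genes, it was -1.32 on wild-type male array 2 and -2.70 on sesB1 male array 4, against -7.55 to -7.22 on the other male arrays. Counts without these 4 arrays are given where they differ.

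The member probesets were compared between sesB1 and wild type within each sex (limma, adjusted p under 0.05 over all probesets). In males 4 of the 14 probesets rose, those of Hex-C and Pgi, 1 probeset of Ald1, and Tpi, and none fell. Of all probesets 21.9% were called in males, 11.1% higher and 10.8% lower. The count of 4 of 14 lay near the share called in either direction and above the share called higher. Hex-A, Pfk and the other probeset of Ald1, which also belong to the upper steps, were not called in males. In females 2 rose, Hex-A and the Ald1 probeset that rose in males, and 1 probeset of Gpdh1 fell. Of all probesets 32.2% were called in females, 13.4% higher and 18.9% lower, so the share of members called there was below that of the whole array. The arrays of the 2 genotypes did not overlap for 2 higher probesets and 1 lower probeset in females (16.1% and 22.1% of all) and for 5 and 1 in males (14.4% and 15.3%). Most members lay near 0. Their median log2 difference was 0.03 in each sex, beside 0.01 over all probesets in females and -0.01 in males. Without the 4 arrays named above, 2 probesets rose in males, and in females 1 rose and 1 fell. Of all 18769 probesets, 1668 were then called higher and 1335 lower in males. In females these counts were 2495 and 3481.

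**Figure D1:**
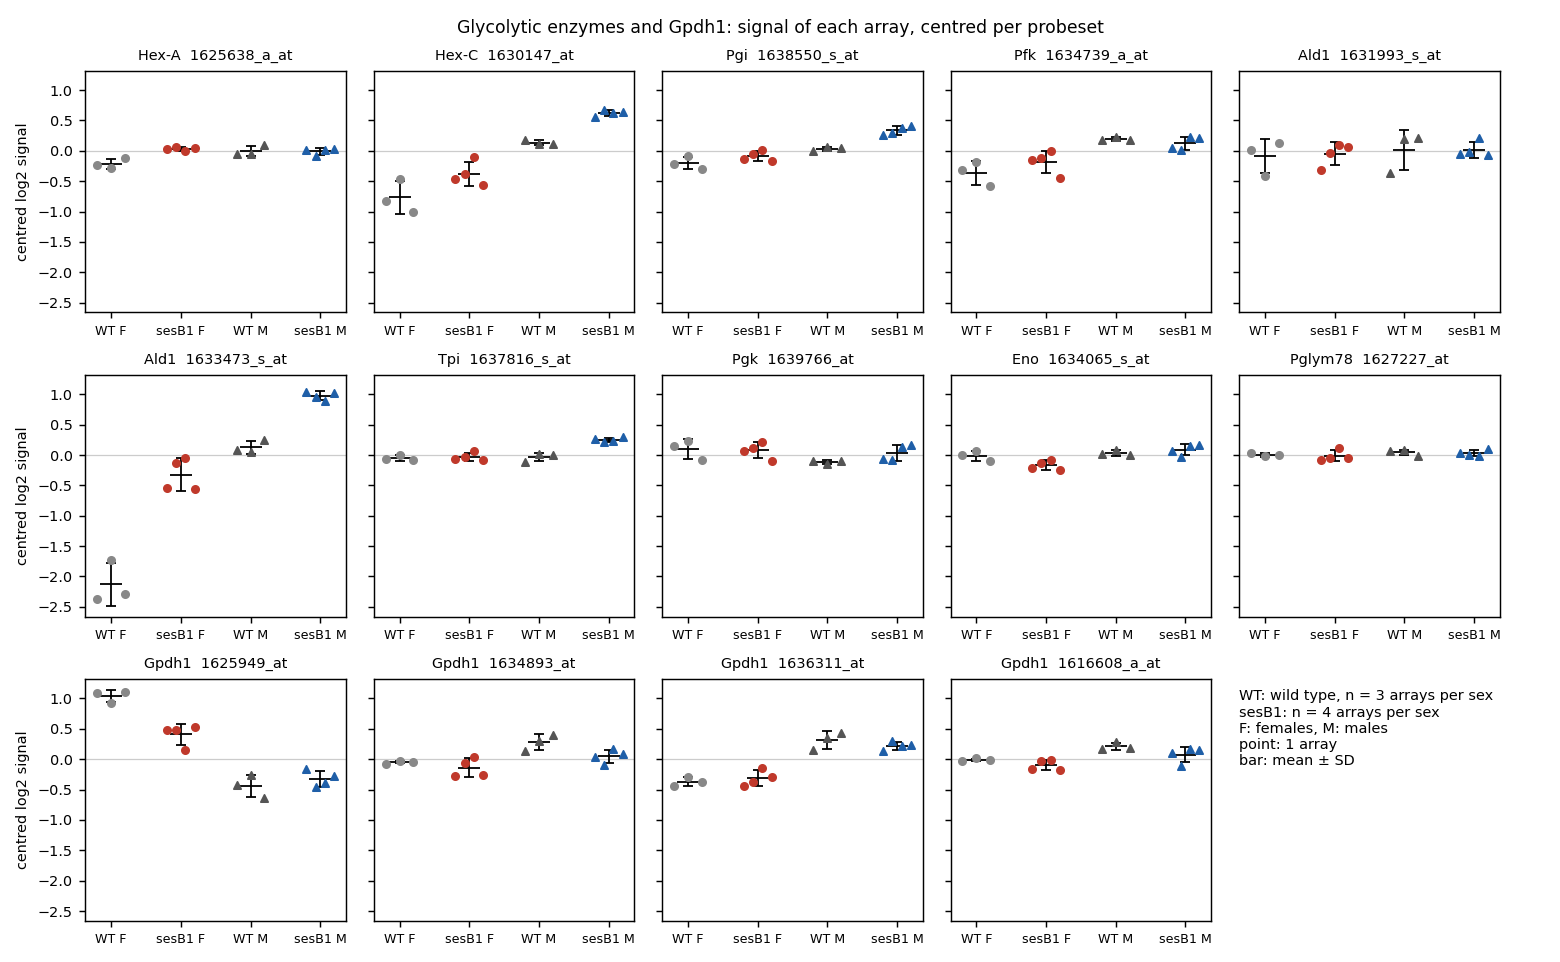
Centred log2 signal (vertical axis) of the 14 probesets on each of the 14 arrays, grouped as wild-type females, sesB1 females, wild-type males and sesB1 males; points are arrays and bars are mean ± SD (n = 3, 4, 3 and 4). The Ald1 probeset 1633473_s_at runs from -2.37 in wild-type females to 1.04 in sesB1 males. The other Ald1 probeset spreads from -0.41 to 0.22 with overlapping groups, and Pglym78 stays between -0.08 and 0.12.

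Hexokinase phosphorylates glucose and commits it to the cell. Hex-A, the hexokinase of muscle and many other tissues, read -0.24, -0.28 and -0.12 in wild-type females and 0.04, 0.06, -0.01 and 0.05 in sesB1 females. Every sesB1 female array was above every wild-type female array, a difference of 0.25 on the log2 scale (SE 0.07, 1.19-fold, adjusted p = 0.0301 from limma). In males the arrays of both genotypes lay between -0.09 and 0.09 and overlapped, with a difference of -0.01 (SE 0.07, adjusted p = 0.974). The call in females was lost when 5 of the 7 arrays were left out in turn (adjusted p up to 0.109), and the difference was 0.14 (adjusted p = 0.283) after quantile normalization.

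Hex-C, a hexokinase best known from the fat body, followed another pattern. It read 0.19, 0.11 and 0.11 in wild-type males and 0.55, 0.67, 0.62 and 0.64 in sesB1 males, with no overlap, and rose by 0.49 (SE 0.07, 1.40-fold, adjusted p = 0.000497). In wild-type females it read -0.83, -0.46 and -1.01 and in sesB1 females -0.46, -0.38, -0.11 and -0.56. Here wild-type array 2 lay within the range of the mutant, and the difference of 0.39 (SE 0.15, 95% confidence interval 0.05 to 0.72) did not pass the test (adjusted p = 0.0784). Without wild-type female array 2 it was 0.54 (adjusted p = 0.0203), and after quantile normalization it was -0.03. A list of fat body genes, for larval storage proteins, a lipid carrier and a fatty acid synthase, also differed between genotypes. Of its 4 measured genes, 3 rose and 1 fell in females, and 2 rose and 1 fell in males. Its median was -3.23 to -3.13 on wild-type and -0.06 to 0.13 on sesB1 female arrays, and -1.84 to -1.45 and 0.07 to 0.43 on the male arrays. The list was higher in sesB1 females than in wild-type males, whereas Hex-C had means of -0.38 and 0.13 in these groups. The part of this list in the change of Hex-C was not tested.

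Pgi, the isomerase that turns glucose phosphate into fructose phosphate, read -0.01, 0.06 and 0.05 in wild-type males and 0.26, 0.29, 0.38 and 0.40 in sesB1 males. The groups did not overlap, and the rise was 0.30 (SE 0.07, 1.23-fold, adjusted p = 0.0094). In females the values ran from -0.30 to -0.09 in the wild type and from -0.17 to 0.01 in the mutant, with a difference of 0.11 (95% confidence interval -0.08 to 0.31, adjusted p = 0.380). Pfk, the phosphofructokinase whose step is the main point of control, showed no called change in either sex. Its difference was 0.18 in females (interval -0.11 to 0.47) and -0.07 in males (interval -0.25 to 0.10). Pgi was not called in males without wild-type array 2 and sesB1 array 4 (0.29, adjusted p = 0.0550).

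The largest differences between genotypes among the members were those of Ald1, the aldolase that splits fructose bisphosphate into dihydroxyacetone phosphate and glyceraldehyde phosphate, and they were seen by only 1 of its 2 probesets. Probeset 1633473_s_at read -2.37, -1.73 and -2.29 in wild-type females and -0.54, -0.13, -0.05 and -0.56 in sesB1 females. The lowest mutant array was more than 1 log2 unit above the highest wild-type array, and the rise was 1.81 (SE 0.19, 3.50-fold, adjusted p = 0.000181). In males it read 0.08, 0.05 and 0.24 in the wild type and 1.04, 0.96, 0.89 and 1.02 in the mutant, again without overlap, a rise of 0.85 (SE 0.08, 1.81-fold, adjusted p = 3.34e-05). Both rises were called whichever array was left out, with values of 1.69 to 2.01 in females and 0.82 to 0.91 in males. After quantile normalization the rise in females was 1.02 (adjusted p = 0.0033).

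The other Ald1 probeset, 1631993_s_at, read 0.01, -0.41 and 0.13 in wild-type females and -0.32, -0.03, 0.10 and 0.06 in sesB1 females. In males it read -0.36, 0.20 and 0.22 in the wild type and -0.06, -0.01, 0.21 and -0.06 in the mutant. The arrays of all 4 groups overlapped, and the differences were 0.04 in females (95% confidence interval -0.30 to 0.37) and 0.00 in males (interval -0.31 to 0.31). The signal of 1633473_s_at less that of 1631993_s_at thus ran from -2.43 to -1.32 in wild-type females, -0.62 to -0.09 in sesB1 females, -0.15 to 0.44 in wild-type males and 0.68 to 1.10 in sesB1 males. Both probesets carry the suffix of probes shared by several transcripts, and which transcripts each of them reads was not known here.

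**Figure D2:**
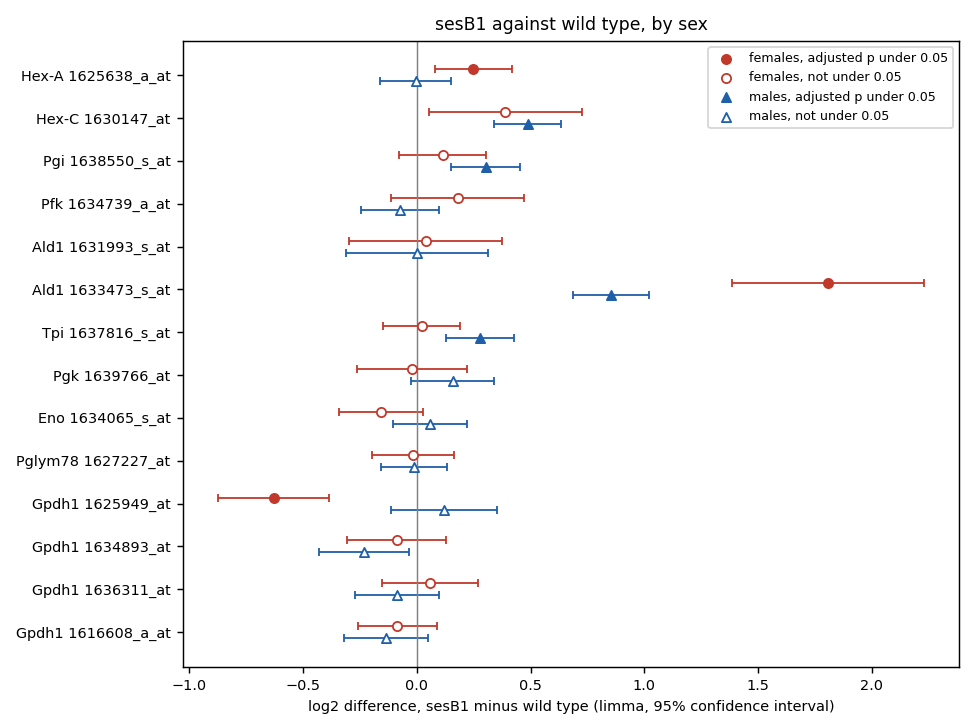
Log2 difference of sesB1 minus wild type (horizontal axis, limma estimate with 95% confidence interval) for the 14 probesets in pathway order, females as circles and males as triangles, filled where the adjusted p was under 0.05. Ald1 1633473_s_at rose by 1.81 in females and 0.85 in males, and Gpdh1 1625949_at fell by 0.63 in females.

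Tpi, which interconverts the triose phosphates made by aldolase, rose in males. It read -0.11, 0.02 and 0.00 in the wild type and 0.26, 0.21, 0.23 and 0.29 in the mutant, with no overlap and a difference of 0.28 (SE 0.07, 1.21-fold, adjusted p = 0.0140). In females both genotypes lay between -0.08 and 0.06, with a difference of 0.02 (95% confidence interval -0.15 to 0.19). Tpi was not called in males without wild-type array 2 and sesB1 array 4 (0.29, adjusted p = 0.0559).

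The enzymes of the lower, ATP-yielding part of the pathway showed no called change. Pgk, the phosphoglycerate kinase, read -0.10, -0.15 and -0.10 in wild-type males and -0.07, -0.08, 0.14 and 0.16 in sesB1 males. The groups did not overlap, yet the difference of 0.16 (interval -0.02 to 0.34) did not pass the test (adjusted p = 0.227). For Pglym78, a phosphoglycerate mutase, all 14 arrays lay between -0.08 and 0.12 and the differences were -0.02 in females (interval -0.20 to 0.16) and -0.01 in males (interval -0.16 to 0.13). Eno, the enolase, had a difference of -0.16 in females (interval -0.34 to 0.03, adjusted p = 0.190) and 0.06 in males (interval -0.11 to 0.22). After quantile normalization the female difference of Eno was -0.29 and passed the test (adjusted p = 0.0274). Gapdh1, a glyceraldehyde phosphate dehydrogenase that is not a member, had differences of -0.06 in females and 0.07 in males that did not pass the test. Gapdh2, PyK and Ldh were not analysed here.

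Gpdh1 also gave different readings from its probesets. Probeset 1625949_at read 1.08, 0.92 and 1.11 in wild-type females and 0.47, 0.48, 0.16 and 0.53 in sesB1 females. All mutant arrays were below all wild-type arrays, a fall of 0.63 (SE 0.11, 1.55-fold lower, adjusted p = 0.00191) that was called whichever array was left out (-0.69 to -0.54) but not after quantile normalization (-0.39, adjusted p = 0.0805). In males it read -0.43, -0.27 and -0.63 in the wild type and -0.16, -0.46, -0.40 and -0.28 in the mutant, overlapping, with a difference of 0.12 (95% confidence interval -0.11 to 0.35).

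The 3 other Gpdh1 probesets showed no called difference between genotypes. Their differences were -0.09 for 1634893_at, 0.06 for 1636311_at and -0.09 for 1616608_a_at in females. In males 1634893_at had -0.23 (adjusted p = 0.0944), 1636311_at had -0.09 (adjusted p = 0.555) and 1616608_a_at had -0.14 (adjusted p = 0.310). The male arrays of 1616608_a_at did not overlap, with 0.18, 0.28 and 0.18 in the wild type and 0.10, -0.11, 0.16 and 0.15 in the mutant. Probeset 1634893_at was called in males without wild-type array 1 (-0.31, adjusted p = 0.0432).

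Marker genes of several tissues also differed between genotypes, beside 13.4% of all probesets called higher and 18.9% lower in females. In males these shares were 11.1% and 10.8%. In females 7 of 15 muscle genes rose and none fell, with array medians of -0.52 to -0.37 in the wild type and -0.12 to 0.04 in the mutant, while 9 of 15 ovary genes fell and 2 rose. In females 3 of 4 photoreceptor genes (array medians -0.79 to -0.53 and -0.29 to -0.07) and 2 of 9 neuron genes (medians -0.75 to -0.43 and -0.43 to -0.28) also rose and none fell, the neuron count being 5 without wild-type array 3. In males 1 photoreceptor gene rose, and 2 photoreceptor and 2 neuron genes fell. In males 1 muscle gene rose and 4 fell, the 4 becoming 1 without wild-type array 3 and 2 without wild-type array 1 or sesB1 array 2 or 3. In the same males 9 of 10 accessory gland genes and 6 of 9 testis genes fell, and 1 accessory gland gene and no testis gene rose. The part of these tissues and cells in the differences of Hex-A, Ald1 and Gpdh1 was not tested.

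The change of 3 probesets differed between the sexes (sex by genotype interaction over the 14 arrays, limma). The difference in females exceeded that in males by 0.96 for Ald1 1633473_s_at (SE 0.21, adjusted p = 0.00416). It was below that in males by 0.75 for Gpdh1 1625949_at (interaction -0.75, SE 0.16, adjusted p = 0.00263) and for Tpi (interaction -0.26, SE 0.09, adjusted p = 0.0482). Among all probesets 27.6% had such an interaction, 11.6% with a higher and 16% with a lower value in females. The interaction of Tpi was close to the threshold and was lost when any of 12 arrays was left out in turn. After quantile normalization those of Ald1 (0.27, adjusted p = 0.370) and Gpdh1 (-0.43, adjusted p = 0.205) did not pass, whereas Tpi (-0.37, adjusted p = 0.0341), Hex-C (-0.49, adjusted p = 0.0405) and Pgi (-0.37, adjusted p = 0.0395) did. Hex-A, called in females and not in males, had an interaction of 0.25 that did not pass (adjusted p = 0.0576).

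**Figure D3:**
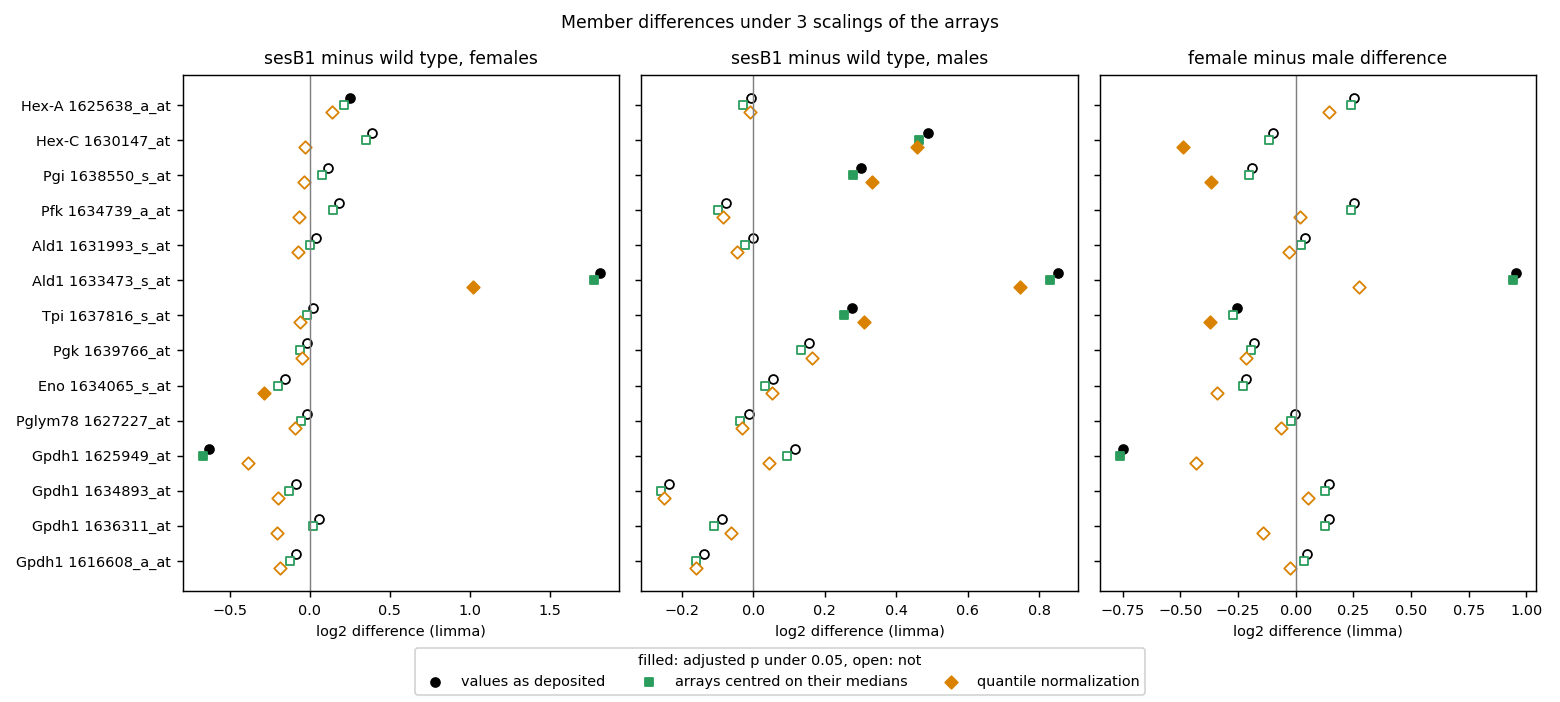
Log2 difference (horizontal axis, limma) of each probeset under 3 scalings of the arrays, for females, males and the difference between the sexes, with filled symbols where the adjusted p was under 0.05. The values in males barely move, while in females Ald1 1633473_s_at drops from 1.81 to 1.02 and Gpdh1 1625949_at goes from -0.63 to -0.39 after quantile normalization.

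Between the sexes the members differed about as often as other probesets. In the wild type 8 of the 14 probesets were lower in females than in males and 1 was higher, and in sesB1 8 were lower and 1 was higher. Of all probesets 64.1% were called in the wild type, 39.4% higher and 24.7% lower in females, and 65.1% in sesB1, 43.8% higher and 21.3% lower. The arrays did not overlap for 2 higher and 8 lower members in the wild type (42.1% and 25.5% of all probesets) and for 1 and 7 in sesB1 (39.7% and 19.9%). The median of all probesets was itself 0.15 higher in wild-type females and 0.17 higher in sesB1 females, and relative to that shift 12 and 13 of the 14 members lay below it. Centring each array on its median removed most of the shift and changed the share of higher among all called probesets from 61.4% to 50.6% in the wild type and from 67.3% to 51.7% in sesB1.

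Ald1 1633473_s_at differed by -2.26 between wild-type females and males (SE 0.16, 4.78-fold lower in females, adjusted p = 4.51e-09) and by -1.30 in sesB1 (SE 0.14, 2.46-fold lower, adjusted p = 7.33e-07). Hex-C was 1.87-fold lower in wild-type females (-0.90, SE 0.13, adjusted p = 1.21e-05) and 2.00-fold lower in sesB1 females (SE 0.11, adjusted p = 9.1e-07). Pfk was lower by -0.56 and -0.30 and Pgi by -0.23 and -0.42 in the wild type and in sesB1. For each of these probesets the order of the group means was wild-type females, sesB1 females and then the males, and the shift between the female groups passed the test for Ald1 and not for the 3 others.

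Gpdh1 1625949_at ran the opposite way. It was 2.79-fold higher in females of the wild type (1.48, SE 0.12, adjusted p = 1.58e-08) and 1.66-fold higher in sesB1 females (0.73, SE 0.10, adjusted p = 1.26e-05). The probesets 1636311_at (-0.68 and -0.54) and 1616608_a_at (-0.22 and -0.17) were lower in females of both genotypes, and 1634893_at was lower in the wild type (-0.33, adjusted p = 0.00884) with -0.19 in sesB1 (adjusted p = 0.0703). The sesB1 arrays of 1616608_a_at overlapped (adjusted p = 0.0458), and its call there was kept in 3 of 14 fits with an array left out. Less the mean of the 3 others, 1625949_at lay between 1.02 and 1.27 in wild-type females, 0.19 and 0.77 in sesB1 females, -0.98 and -0.58 in wild-type males, and -0.58 and -0.25 in sesB1 males.

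Hex-A was lower in females of the wild type (-0.21, adjusted p = 0.0181), with 0.05 in sesB1 (adjusted p = 0.519). Tpi and Eno were lower in sesB1 females (-0.27, adjusted p = 0.000851, and -0.25, adjusted p = 0.00407), with -0.02 and -0.04 in the wild type. Of these differences between genotypes only that of Tpi passed the interaction test given above. Pgk and Pglym78 were called in neither genotype, although the wild-type arrays of Pgk did not overlap, with 0.15, 0.23 and -0.09 in females and -0.10, -0.15 and -0.10 in males.

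**Figure D4:**
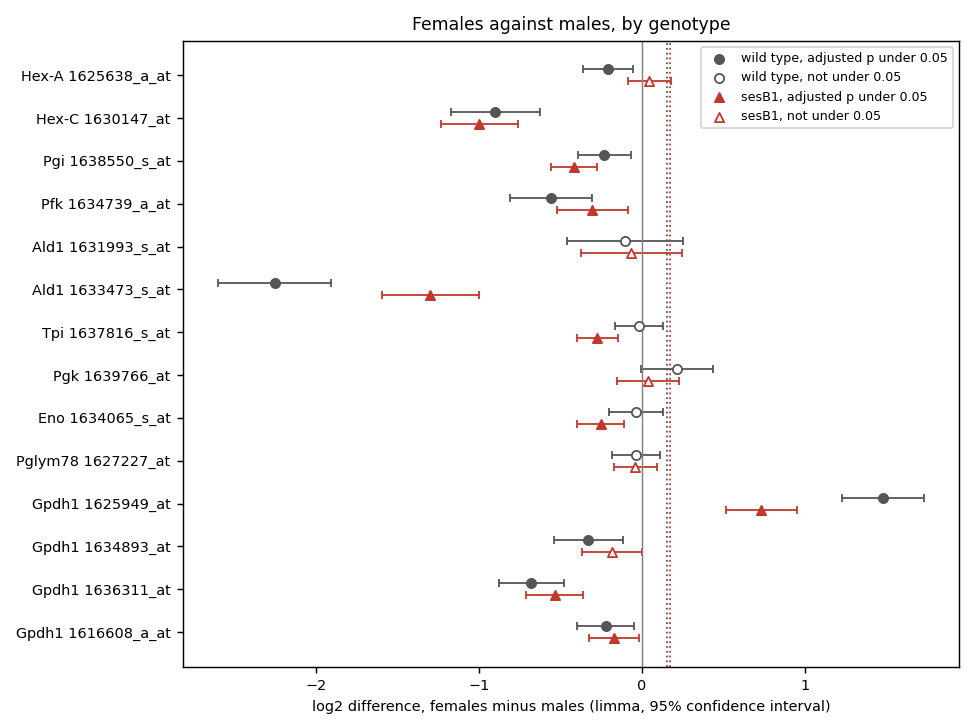
Log2 difference of females minus males (horizontal axis, limma estimate with 95% confidence interval) in the wild type (circles) and in sesB1 (triangles), filled where the adjusted p was under 0.05; dotted lines mark the median of all probesets, 0.15 and 0.17. Ald1 1633473_s_at (-2.26 and -1.30) and Gpdh1 1625949_at (1.48 and 0.73) stand at the opposite ends.

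Averaged over the 10 genes, the centred signal was -0.25, -0.17 and -0.32 in wild-type females, -0.15, -0.07, 0.02 and -0.19 in sesB1 females, 0.00, 0.07 and 0.06 in wild-type males and 0.17, 0.14, 0.23 and 0.25 in sesB1 males. The male groups did not overlap in this mean, whereas sesB1 female array 4 was below wild-type female array 2. The median over the 10 genes, by 1 probeset a gene, did overlap in males. It ran from -0.03 to 0.07 on wild-type and from -0.004 to 0.18 on sesB1 male arrays. Array 4 of the mutant and array 3 of the wild type were the lowest of their female groups in the mean, as they were for Hex-C, Pfk and Pgk. Over the 14 arrays, and after subtracting the group means, the 84 pairs of probesets of different genes had a median Pearson correlation of 0.43 (range -0.66 to 0.95), and 61 were above 0. These arrays share their scaling, so the correlations are a description.

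The genes whose values over the 14 arrays were most like this mean were ATPsynF (Pearson r = 0.985), Ser7 (0.973), ScsbetaA (0.966), CG9691 (0.963) and ATPsynB (0.962). ATPsynF and ATPsynB code for subunits of the mitochondrial ATP synthase, ScsbetaA for a subunit of succinyl-CoA synthetase of the citric acid cycle, and Ser7 for a serine protease. With the group means subtracted they were CG12171 (0.978), CG7430 (0.969), CG15617 (0.957), tinc (0.956) and again ScsbetaA (0.944), CG7430 being the dihydrolipoamide dehydrogenase of the pyruvate dehydrogenase complex.

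Neighbouring pathways were counted by 1 probeset a gene. The counts of these and the further lists below stand beside 13.4% of all probesets called higher and 18.9% lower in females. In males the shares of all probesets were 11.1% and 10.8%. Of 10 genes of trehalose and glycogen metabolism, 6 rose and none fell in males, with a median of 0.30, while 2 rose and 1 fell in females. The 6 became 3 to 6 with an array left out, 3 without wild-type male array 1 or sesB1 male array 3. AGBE, the glycogen branching enzyme, ran from -0.55 to -0.17 in wild-type males and from 0.68 to 0.86 in sesB1 males, a rise of 1.08 (SE 0.10, 2.11-fold, adjusted p = 4.01e-05). In females its arrays overlapped, with a difference of -0.09, and the interaction was -1.17 (adjusted p = 0.000455). The debranching enzyme CG9485 rose in males by 0.69 (adjusted p = 5.53e-05), with -0.17 in females.

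Pgm1, the phosphoglucomutase that links glycogen to glucose phosphate, rose in both sexes, by 0.55 in males (adjusted p = 0.000208) and 0.32 in females (adjusted p = 0.0319). Treh, which splits the blood sugar trehalose, rose in females by 0.46 (adjusted p = 0.00315), with 0.05 in males, and its interaction was 0.41 (adjusted p = 0.00722). The gene that fell in females was Tps1, for trehalose synthesis (-0.30, adjusted p = 0.0293), named after its value was seen. With an array left out, the female calls of Pgm1 were lost in 4 and of Tps1 in 5 of 7 fits. Neither Pgm1 (0.14) nor Treh (0.23) was called in females after quantile normalization. The accessory gland and testis genes given above fell in the same males, and their part in these rises was not tested.

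In the pentose phosphate pathway, the branch that makes NADPH and ribose from glucose phosphate, the 5 genes with a probeset of their own rose in males, with a median of 0.55. These do not include the dehydrogenases that make NADPH. Of these Zw was not analysed here, and Pgd had only a probeset shared with D2hgdh, which can be assigned to neither. That probeset fell in males (-0.29, adjusted p = 0.0239), with -0.04 in females, and is given after its value was seen. Taldo, the transaldolase, ran from -0.24 to -0.05 in wild-type males and from 0.75 to 0.91 in sesB1 males, a rise of 0.98 (SE 0.08, 1.97-fold, adjusted p = 1.33e-05). Pgls, the lactonase, rose by 0.71 (adjusted p = 7.57e-05), CG8036, a transketolase, by 0.55 (adjusted p = 0.000318), and Rpi, the ribose phosphate isomerase, by 0.34 (adjusted p = 0.00537). In females Taldo rose by 0.53 (adjusted p = 0.0203), Rpe, the epimerase, fell by 0.28 (adjusted p = 0.0329) and was named after its value was seen, and the median was 0.06. With an array left out, the female calls of Taldo were lost in 3 and of Rpe in 5 of 7 fits. The interaction was called for 3 of the 5, each lower in females, with -0.67 for Pgls (adjusted p = 0.00206) and -0.49 for CG8036 (adjusted p = 0.00126). The 5 rises in males were also called after quantile normalization, after centring and without the arrays that held transcripts of the other sex, while that of Rpe (0.27) was lost in 4 of 7 fits with an array left out.

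Of 4 genes of gluconeogenesis 3 rose in females, among them PCB, the pyruvate carboxylase, which ran from -0.52 to -0.44 in the wild type and from -0.12 to -0.02 in the mutant (0.41, adjusted p = 0.00233). In males its difference was 0.21 (adjusted p = 0.0720). Pepck2, a phosphoenolpyruvate carboxykinase, fell in males by 0.60 (adjusted p = 0.00152), with -0.12 in females, while 2 genes of the list rose there. Of 8 genes listed as regulators, 1 fell in females, bigmax, which works with Mondo in sugar sensing (-0.31, adjusted p = 0.00779), by the probesets counted. That count, and the 1 higher and 1 lower of the 8 in males, lay near or below the shares of all probesets. A second probeset of Hph, the prolyl hydroxylase that acts on hypoxia-inducible factor, also fell in females (-0.62, adjusted p = 0.00115), whereas the probeset counted had 0.10. In males sima, the hypoxia-inducible factor, fell (-0.38, adjusted p = 0.0366), and its call was lost in 4 of 7 fits with an array left out. Mondo rose in males (0.21, adjusted p = 0.0435), a call lost whichever array was left out. The differences of sug, a sugar-responsive transcription factor, were -0.27 in females and 0.25 in males, and those of tgo, the partner of sima, -0.35 and -0.33, none of which passed. Hph and Mondo were named after their values were seen.

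**Figure D5:**
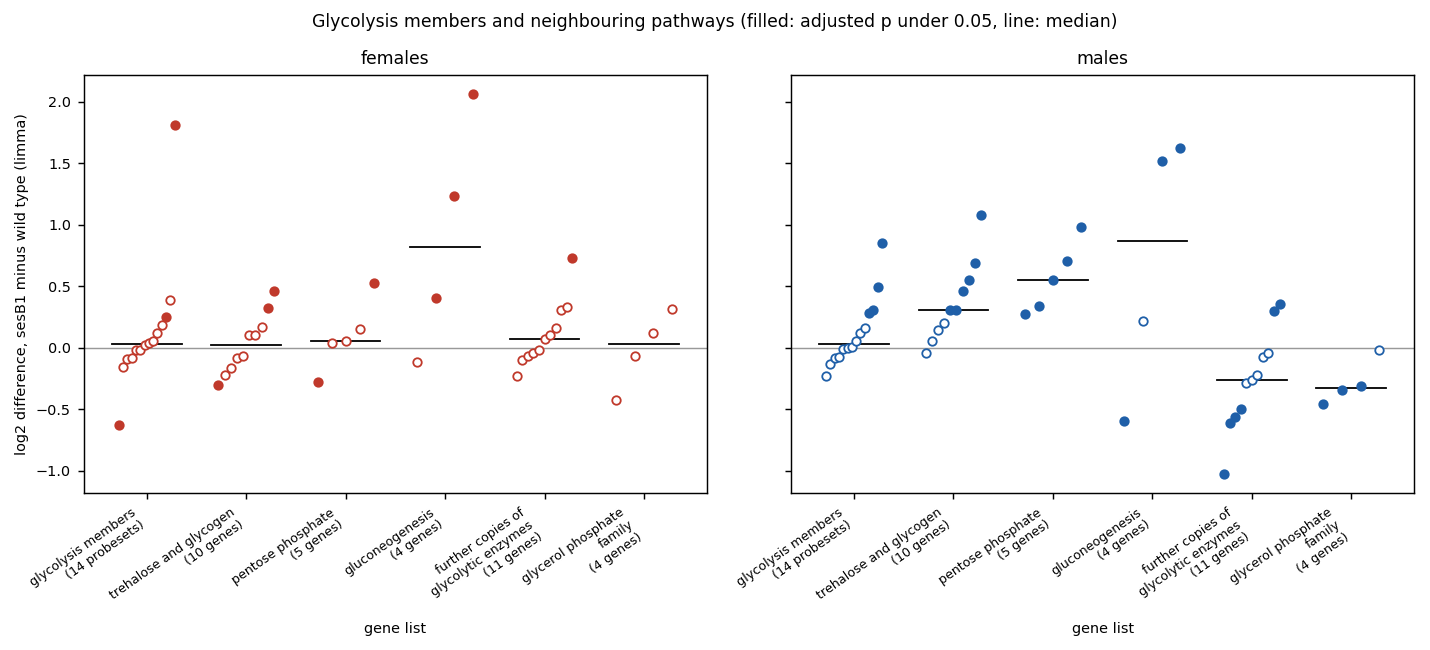
Log2 difference of sesB1 minus wild type (vertical axis, limma) for the 14 member probesets and for the measured genes of 5 neighbouring lists, in females and males; each point is a probeset or gene, filled where the adjusted p was under 0.05, and lines are medians. All 5 pentose phosphate genes with a probeset of their own and 6 of 10 trehalose and glycogen genes rose in males (3 to 6 with an array left out). In males 3 of the 4 measured further genes of the glycerol phosphate family fell.

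Further copies of the glycolytic genes were typical of males. All 11 copies with a probeset of their own were lower in females than in males in both genotypes, with a median of -3.38 in the wild type and -2.61 in sesB1. In sesB1 males 4 fell and 2 rose. CG13334, a lactate dehydrogenase copy, ran from 1.20 to 1.42 in wild-type males and from 0.04 to 0.65 in the mutant, a fall of 1.03 (SE 0.13, 2.04-fold lower, adjusted p = 0.000345). CG9961, a phosphoglycerate kinase copy, fell by 0.62 (adjusted p = 0.000817) and CG2964, a pyruvate kinase copy, by 0.56 (adjusted p = 0.000654). After quantile normalization 1 of the 11 copies fell in males. Ald2, an aldolase copy, had only a probeset with several gene symbols and was not counted. That probeset fell in males (-0.57, adjusted p = 0.000335), with 0.04 in females, and is given after its value was seen. In females 1 rose, CG7059, a phosphoglycerate mutase copy, from between -2.21 and -1.90 to between -1.42 and -1.24, a rise of 0.73 (SE 0.10, 1.66-fold, adjusted p = 0.000548). In the same females the testis list had a median of -3.24 on sesB1 array 2 and -2.23 on array 4, against -5.26 to -4.95 on the others. CG7059 was also called without these 2 arrays.

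The 4 measured further genes of the glycerol phosphate family were likewise male-typical, with a median of -4.05 in females against males of the wild type. Gpo1, also on this list, was not analysed here. In sesB1 males Gpo2 fell by 0.46 (adjusted p = 0.0138), Gpdh3 by 0.34 (adjusted p = 0.00821) and Gpo3 by 0.31 (adjusted p = 0.0320), with no overlap of the arrays. With an array left out, Gpo2 was lost without wild-type array 3 and Gpo3 in 5 of 7 fits. Gpdh2 had -0.02. None of these 3 falls passed after quantile normalization, and the testis genes fell in the same arrays, their medians running from 2.59 to 2.73 in the wild type and from 2.24 to 2.39 in the mutant. The part of the testis in the falls was not tested. In females none of the 4 genes was called.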

How the data were processed

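Whole-fly RNA was hybridized to 14 Affymetrix Drosophila 2.0 arrays. The authors normalized the raw data in Genespring GX. A version and a summarisation method were not given in the sources used here. Log2 signals were deposited, centred by probeset, and since the array means lay within 0.0341 of each other they were used without rescaling. The array medians differed more, over a range of 0.265 in all, 0.127 among females and 0.0852 among males. Centring and quantile normalization were therefore also tried. The deposited signals hold no brightness, so depth over background is not known. Of 265328 values, 30 were spreadsheet date serials and were treated as missing, none in a member. Of 18952 probesets, 183 controls were left out. Of the 18769 tested, 13646 had 1 symbol, 402 several and 4721 none.

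Each sex was fitted separately, and all 14 arrays jointly for the interaction and the differences between females and males, with limma 3.58.1 in R 4.3.3 (lmFit, eBayes). The Benjamini-Hochberg adjustment ran over all probesets, and a probeset was called at an adjusted p under 0.05. The fits were tested on simulated data. Tables used Python 3.11.15 and pandas 2.3.3. Every member probeset is named, up to 4 genes of each list by largest change (first probeset by identifier), and the 5 most alike genes. Tps1, Rpe, Hph, Mondo, the probeset of Ald2 and that of Pgd and D2hgdh fall outside this rule. The genes fbp and Pepck1, which it names, are given by count. Members, lists and most alternatives were chosen with earlier results of these data known. The alternatives were quantile normalization, centring by array median, other samples in the fit, array weights, a replicate block, a variance trend, a 1.5-fold threshold and leaving out arrays. Those for the lists were added after seeing the data.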

Additional observations from a re-analysis of the deposited data

Results flagged for a closer look

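The change with sesB1 differed between the sexes for 3 probesets by the interaction test of limma. These were Ald1 1633473_s_at with 0.96, Gpdh1 1625949_at with -0.75 and Tpi with -0.26, each the log2 difference in females minus that in males. Of all probesets 27.6% had such an interaction. Those of Ald1 and Gpdh1 did not pass after quantile normalization, and that of Tpi was called in 2 of 14 fits with an array left out. In sesB1 females, array 3 read 0.16 for Gpdh1 1625949_at and stood apart from the other arrays of its group, which lay between 0.47 and 0.53. Groups of 4 arrays were examined for all 14 probesets, 28 in all, and chance marks about 1 in 20 groups.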

How the results depend on the processing

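The count of called members in females was 3 and stayed between 2 and 3 with each array left out in turn, and it was 2 after quantile normalization, of which only Ald1 1633473_s_at was among the 3. The count of 4 in males was 2 with the replicate block, 2 without wild-type male array 2 and sesB1 male array 4 and 1 at a change of at least 1.5-fold, with 4 to 5 when 1 array was left out. The interaction count of 3 ranged from 2 to 3. The count of 9 between wild-type females and males was 4 at 1.5-fold and 7 to 9 with an array left out, and that of 9 in sesB1 was 3 at 1.5-fold and 7 to 10. Of 476 single values under other settings 438 kept their call, 25 lost it and 13 gained it, and no called value changed its sign with the call kept. With 1 array left out, 742 of 784 kept their call. Over all probesets quantile normalization called 2953 in place of 6050 in females and 1781 in place of 5183 interactions, and the replicate block called 2614 in place of 4112 in males. Without wild-type male array 2 and sesB1 male array 4, 3003 were called in males. A 1.5-fold threshold left 3038 in females, 1233 in males, 2936 interactions and 6589 of 12218 between the sexes in sesB1. The cause of the other shifts was not tested. Same-numbered arrays of both genotypes deviated with correlations of -0.17 to 0.09, within the -0.31 to 0.27 of arrays with other numbers. The numbers thus showed no sign of pairing. With 3 and 4 arrays a group the correlations cannot exclude a shared batch, and what the block stands for is not known.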
